A study of Mus musculus with 8 samples.

Results

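Type I interferon-stimulated genes, the transcripts that cells raise when a type I interferon binds its receptor, were examined in mouse T cells that expressed ROR-γt as WT or as the K187R mutant. The list holds 40 genes, chosen by name for what they are known to do and matched by symbol to the rows of the deposited table, and each had to average at least 10 normalized counts over the 8 samples. All 40 were among the 22829 genes listed, and 39 of them were among the 16982 genes with that mean. The exception was Ifi44, with a mean of 8.87, and the member just inside the minimum was Mx2, with a mean of 18.5.

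RNA was sequenced from 8 samples of CD4+ T cells of ROR-γt-/- mice, 4 given back WT-ROR-γt (called WT) and 4 given back K187R-ROR-γt (called K187R), a mutant in which the lysine that takes up the small modifier protein SUMO is replaced. Both groups therefore lacked their own ROR-γt, the transcription factor that directs the Th17 program, received a lentivirus carrying V5-tagged ROR-γt and were cultured under Th17-inducing conditions. CD4+ T cells were drawn from spleen with magnetic beads, and the sources used here do not say whether transduced cells were separated from those that took up no virus. Neither the labels nor the paper says whether the samples of a group came from separate mice or cultures, and the deposited design text speaks of WT and mutant mice. The p-values therefore measure the spread between these samples, part of which may be technical. Within each group the samples also differed widely in Xist, a transcript of female cells described below. No interferon treatment is named for the cells, and K187R against WT is the only contrast.

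Type I interferons (interferon-α and interferon-β) bind a receptor made of IFNAR1 and IFNAR2, which activates the kinases JAK1 and TYK2. These phosphorylate STAT2, which joins IRF9 in ISGF3, a complex that binds the interferon-stimulated response element (ISRE) in the promoters of many target genes. Interferon-γ acts through a different element, the gamma-activated site (GAS). The products of the target genes sense, bind or destroy viral RNA, block virus entry and release, and feed back on the pathway itself, and most cells keep a low level of them without any infection.

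Reads counted on genes ranged from 52456804 to 74676721 per WT sample (median 65721336) and from 54260345 to 67827288 per K187R sample (median 56992947), and a count of 3 reads corresponded to between 2.54 and 3.56 normalized counts. Normalized counts are reads divided by 1 size factor per sample. All 6 T cell markers were present (Cd3d, Cd3e, Cd3g, Cd4, Lck and Trac, summed 120848 to 139022 in WT and 127563 to 146403 in K187R). Of the Th17 markers, Il17f ranged from 10238 to 22033 in WT and from 16593 to 24917 in K187R, and Ccr6 from 776 to 1724 and from 1490.1 to 3038. All 7 myeloid markers were also present, from Lyz2 to Mpeg1, with sums of 24371 to 69503 in WT and 41410 to 72711 in K187R. The 5 B cell markers summed to between 301 and 1220 in WT and between 357 and 1596 in K187R, the 2 CD8 markers to between 403 and 1025 and between 387 and 1141, and the 3 NK cell markers to between 21.8 and 63.5 and between 21.5 and 67.2. Of 4 plasmacytoid dendritic cell markers, 3 were listed, with sums of 2624 to 3743 and 3263 to 3975 that came mostly from Pacsin1, while Siglech was between 0 and 3.56. Clustering of the samples into 3 sets over 16850 genes outside the lists put WT replicates 1 and 3 with K187R replicate 1 (set 1), WT replicate 2 with K187R replicates 2 and 3 (set 2), and both replicates 4 together (set 3). The 3 samples of set 2 held between 13564 and 17373 normalized counts of Xist, which female cells express from the inactive X chromosome, and the other 5 held between 3.56 and 23.7. The origin of the sets was not tested, and the members' values are given within them as well as over all samples.

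The promoters of the list were read for the sequence that ISGF3 binds. RefSeq promoters on GRCm38.p6, taken as the 250 bases before each annotated start, were found for 30 members, some with several starts, giving 38 promoters. There was no entry for Oas2, Zbp1, Mx1, Mx2, Dhx58, Usp18, Parp9, Parp14, Rtp4 and Ifi27. The ISRE core searched was GAAA, then any 2 bases, then GAAA, on either strand (TTTC, any 2 bases, TTTC on the strand printed), and the GAS core was TTCNNNGAA, which reads the same on both strands. An ISRE core was present in 10 of the 38 promoters (26.3%), each of a different member, against 2.98% of all 32851 promoters of that length and 2.75% of the 13768 promoters of genes tested. Isg15 held 3 matches, Ifit1, Ifit3, Oas1a, Ddx60 and Bst2 held 2 each, and Rsad2, Oas3, Stat2 and Trim30a held 1 each. The GAS core was present in 5 member promoters (13.2%) against 7.02% of all promoters. Oas1a and Bst2 held both cores, and in Bst2 they overlapped. The following promoters run 5′ to 3′ toward the start of the gene, with bases of an ISRE core in capitals. Isg15 (chr4:156200819-156201068, minus strand) is shown for its 3 overlapping cores, Oas3 (chr5:120777660-120777909, minus strand) and Ddx60 (chr8:61927837-61928086, plus strand) as members with a core and a log2 fold change of 0.69 and 0.48, and Xaf1 (chr11:72301379-72301628, plus strand) and Sp100 (chr1:85649738-85649987, plus strand) as members whose groups did not overlap and whose windows held no core.
Isg15: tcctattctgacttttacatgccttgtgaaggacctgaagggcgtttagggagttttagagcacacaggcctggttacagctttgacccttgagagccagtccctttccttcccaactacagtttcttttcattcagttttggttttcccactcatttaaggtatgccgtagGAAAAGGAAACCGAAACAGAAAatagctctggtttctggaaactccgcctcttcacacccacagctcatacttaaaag
Oas3: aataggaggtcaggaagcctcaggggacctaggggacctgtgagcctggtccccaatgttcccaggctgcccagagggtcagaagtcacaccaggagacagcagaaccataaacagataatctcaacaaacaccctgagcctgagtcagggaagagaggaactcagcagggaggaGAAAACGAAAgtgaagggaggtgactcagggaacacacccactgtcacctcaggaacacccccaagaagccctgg
Ddx60: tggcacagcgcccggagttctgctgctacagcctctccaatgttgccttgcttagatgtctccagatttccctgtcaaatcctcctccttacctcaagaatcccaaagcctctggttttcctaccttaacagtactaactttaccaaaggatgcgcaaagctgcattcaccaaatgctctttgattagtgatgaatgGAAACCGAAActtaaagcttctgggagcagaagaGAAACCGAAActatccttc
Xaf1: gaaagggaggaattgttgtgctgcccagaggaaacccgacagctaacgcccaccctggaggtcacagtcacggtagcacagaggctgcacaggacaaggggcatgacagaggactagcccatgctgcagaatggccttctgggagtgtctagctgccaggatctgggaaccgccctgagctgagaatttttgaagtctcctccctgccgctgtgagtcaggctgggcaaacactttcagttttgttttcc
Sp100: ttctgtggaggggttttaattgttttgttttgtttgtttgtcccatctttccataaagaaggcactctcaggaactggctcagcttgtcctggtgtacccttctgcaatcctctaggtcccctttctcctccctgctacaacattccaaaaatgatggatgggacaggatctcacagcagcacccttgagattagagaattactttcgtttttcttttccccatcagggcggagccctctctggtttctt

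In the Isg15 promoter the 3 cores formed 1 unbroken run, with centres 73, 67 and 61 bases before the start. The 2 cores of Ddx60 were the same 10 letters, GAAACCGAAA, with centres 48 and 14 bases before the start, and the core of Oas3 was centred 70 bases before it. Among members tested, the median log2 fold change was 0.32 for the 10 with a core and 0.21 for the 19 that had a promoter entry and no core, a description with no test. Without the 3 samples of high Xist both medians were 0.14, and with the sample set as a factor they were 0.19 and 0.14. A match says only that these letters lie in the window, and the search allowed no mismatch. A window without a match can hold a sequence 1 base away from the core, such as tttcagtttt in Xaf1 and tttcgttttt in Sp100. Lack of a match therefore does not show that a promoter lacks an ISRE.

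**Figure D1:**
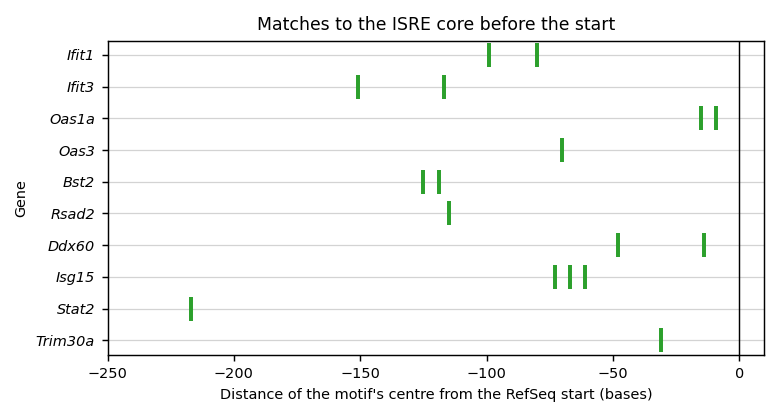
Positions of ISRE core matches in the promoters of the 10 members that held one, as the distance of the centre of each match from the RefSeq start in bases, with the start at 0. Isg15 holds 3 adjacent matches, and Oas1a and Ddx60 each hold a match within 20 bases of the start.

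K187R was above WT for most members by a small amount, and no single member passed the test over all genes. In limma on log2(normalized count + 1), 0 of the 39 members passed an adjusted p of 0.05 (Benjamini-Hochberg), as did 0 of all 16982 genes (0%), and the lowest adjusted p of a member was 0.921. At an unadjusted p under 0.05, 8 members were higher in K187R (20.5%) against 2.75% of all genes, and 0 were lower against 1.64% (in either direction, 8 members against 4.39%). These 8 were Oas2, Xaf1, Lgals3bp, Oas3, Sp100, Mx1, Ddx58 and Samd9l. Their number changed with single samples, and so did the number of all genes at that p, which was 746 with every sample. It was 2 members and 329 genes without WT replicate 1, 2 and 439 without K187R replicate 2, 2 and 386 without K187R replicate 3, and 3 and 372 without WT replicate 3. It was 4 members and 2181 genes without WT replicate 4, 13 and 1453 without WT replicate 2, and 15 and 1066 without K187R replicate 4. On recovered reads, edgeR called 0 members and 0 of all genes (0%), with 9 members at an unadjusted p under 0.05, all higher, against 2.64% of all genes higher and 4.29% in either direction. DESeq2 called 0 members against 0.159% of all genes, with 10 members against 4.91% at an unadjusted p under 0.05 and a lowest adjusted p of 0.279.

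The difference had 1 direction over nearly the whole list. The fold change was above 0 for 36 of the 39 members against 48.4% of all genes, and below it for Trafd1, Ifi35 and Eif2ak2; quantile normalization also gave 36, with Ifit3 and Herc6 below 0 in place of Ifi35 and Eif2ak2. The median log2 fold change was 0.28 over the members and -0.0062 over all genes tested. Groups did not overlap, with K187R higher, for 3 members, Oas2, Xaf1 and Sp100 (7.69%), against 1.47% of all genes, and for 0 members with K187R lower against 0.989%. Members share the same 8 samples, so their directions are not independent of each other. In bulk samples, a larger part of cells that express a gene and more of its RNA per cell cannot be told apart.

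A mean log2 score over the 39 members, the mean of log2(normalized count + 1) in each sample, was 9.05, 9.36, 9.05 and 8.94 in WT replicates 1 to 4 and 9.28, 9.70, 9.72 and 9.05 in K187R replicates 1 to 4. K187R replicates 2 and 3 were the highest of all 8 samples and WT replicate 4 the lowest, and the groups overlapped because WT replicate 2 lay above K187R replicates 1 and 4. The means were 9.10 ± 0.18 for WT and 9.44 ± 0.33 for K187R (SD, n = 4), a difference of 0.34 on the log2 scale or 1.26-fold, against a pooled SD within groups of 0.27. The difference within sets 1, 2 and 3 was 0.23, 0.35 and 0.11, and K187R was the higher in each. Set 1 held only replicate 1 of K187R, set 2 only replicate 2 of WT, and set 3 only replicate 4 of each group. Differences within a set therefore lack replication in at least 1 group, here and for the members below. With the set as a factor the difference was 0.24. Without the 3 samples of high Xist it was 0.15, the median log2 fold change of the members was 0.11 and 26 of the 39 members stayed above 0, while the number at an unadjusted limma p under 0.05 was 2, with 341 of all 16982 genes. With the set as a factor in limma the median was 0.16, with 0 members and 0.00589% of all genes called. These fits were chosen after the data were seen.

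**Figure D2:**
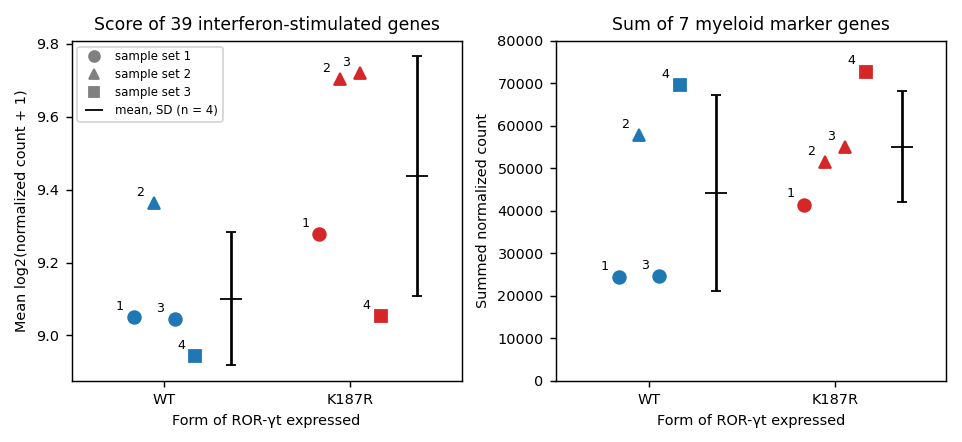
Left, mean of log2(normalized count + 1) over 39 interferon-stimulated genes in each sample, and right, the summed normalized count of 7 myeloid marker genes; numbers are replicates, shapes are the 3 sets of samples, and the bars give the mean and SD of 4 samples. Both replicates 4 have the lowest score and the highest myeloid sum of their group. That sum is mostly Lyz2. Cd68 and Itgam are also highest in replicate 4 of each group, and Csf1r and Cd14 are not.

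Set 2 was the high set for the list. The mean over its 3 samples exceeded that of the other 5 samples for 35 of 39 members against 47% of all genes, and its 3 samples were the 3 highest for 10 members against 8.46%. The highest sample was K187R replicate 2 for 17 members and K187R replicate 3 for another 17, together 34 of 39 against 23.7% of all genes. The lowest sample was WT replicate 4 for 19 members against 19% of all genes. K187R was higher in all 3 sets for 18 members against 13.9% of all genes. Of the 3 samples of set 2, 2 are K187R and 1 is WT, so that set and group are partly confounded over all 8 samples.

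Myeloid marker sums were 24371, 57781, 24647 and 69503 in WT replicates 1 to 4 and 41410, 51384, 54887 and 72711 in K187R replicates 1 to 4, so that the samples numbered 4, which had the lowest score of each group, had the highest sum of each group. Most of the sum was Lyz2, at 54522 in WT replicate 4 and 57778 in K187R replicate 4. Cd68 was also highest of its group in both samples numbered 4, at 2308 (WT) and 2229 (K187R), as was Itgam, at 1135 and 1149. Mpeg1 was highest in replicate 4 in K187R only (8047), and Adgre1 in WT only (662). Within K187R, Adgre1 was highest in replicates 3 and 2, at 863 and 795. Csf1r and Cd14 ran differently and were highest in the 3 samples of set 2. In WT replicate 4 and K187R replicate 4, Csf1r was at 2598 and 2423 and Cd14 at 448 and 407. WT replicates 1 and 3 had the lowest sums of all, with scores near that of K187R replicate 4. The B cell sums were 301 and 357 in the samples numbered 4 and between 998 and 1596 in the others. Without both samples numbered 4 the difference in score was 0.41 and the median log2 fold change of the members was 0.38. Over all 8 samples the log2 fold change of each myeloid marker was also above 0, against 48.4% of all genes. It was 0.46 for Lyz2, 0.27 for Cd68, 0.46 for Csf1r, 0.47 for Itgam, 1.09 for Adgre1, 0.016 for Cd14 and 0.47 for Mpeg1. Their SEs were 0.29 to 0.63, and limma called none of them. The part of myeloid or other cells in the members' values was not tested.

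**Figure D3:**
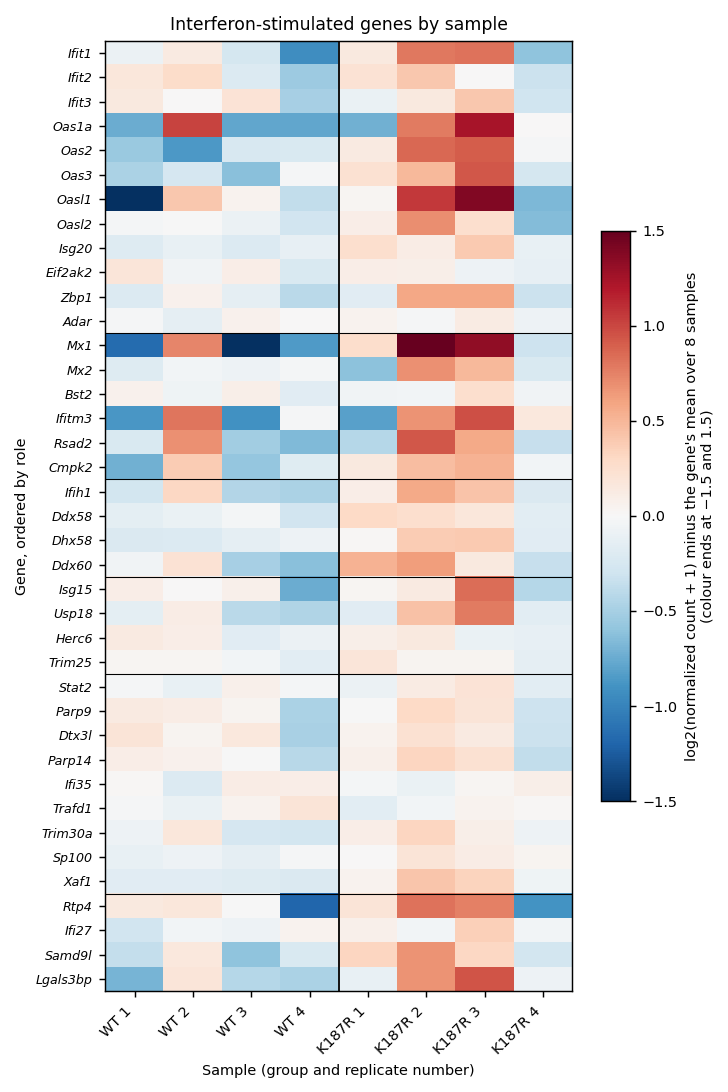
Log2(normalized count + 1) of the 39 members in each sample minus the mean of the gene over the 8 samples, with genes in rows ordered by role, samples in columns, and colours ending at −1.5 and 1.5. K187R replicates 2 and 3 are above the gene's mean in most rows, and WT replicate 4 and K187R replicate 4 are below it in many.

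The first role is that of effectors that bind or cut RNA. Of 12 such members, 11 were higher in K187R (Eif2ak2 was not, or Ifit3 after quantile normalization), with a median log2 fold change of 0.33, and 2 of them, Oas2 and Oas3, had an unadjusted limma p under 0.05, against 2.75% of all genes higher. The OAS proteins sense double-stranded RNA and make 2′-5′-linked oligoadenylates, which switch on the RNA-cutting enzyme RNase L. Oas2 (ENSMUSG00000032690, chr5:120730333-120749853, minus strand, GRCm38) was at 30.9, 25.0, 38.9 and 39.2 normalized counts in WT replicates 1 to 4. In K187R replicates 1 to 4 it was at 50.8, 84.6, 87.4 and 45.3. Every K187R sample lay above every WT sample, with replicates 2 and 3 highest. The means were 33.5 ± 6.85 and 67.1 ± 22.0 (SD, n = 4), a log2 fold change of 0.94 (SE 0.28, 95% interval 0.31 to 1.58, limma p = 0.00817, adjusted p = 0.921, exact two-sided permutation p = 0.0286, the smallest that 4 against 4 allows). The difference within sets 1, 2 and 3 was 0.54, 1.74 and 0.20 on the log2 scale, largest in set 2, and without the 3 samples of high Xist the log2 fold change was 0.40.

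Oas3 (ENSMUSG00000032661, chr5:120753098-120777661, minus strand) lies beside Oas2 on chromosome 5. It was at 84.4, 99.0, 76.1 and 116 in WT and 138, 165, 225 and 97.8 in K187R, and K187R replicate 4 lay below WT replicates 2 and 4. Its log2 fold change was 0.69 (SE 0.26, limma adjusted p = 0.921, exact two-sided permutation p = 0.0857), and within the sets it was 0.77, 0.95 and -0.24, negative in set 3. Oas1a, another OAS gene of the same stretch (chr5:120896256-120907521), was at 35.6, 123, 34.7 and 34.9 in WT and 36.1, 104, 144 and 60.5 in K187R. Its 3 high samples were the 3 of set 2 in both groups, WT replicate 2 included, and the difference within that set was -0.0054 on the log2 scale. The log2 fold change of Oas1a over all samples was 0.65 (SE 0.52) and 0.22 with the set as a factor. Of the 75-base stretches of its exons, 47.6% also occur in its neighbour Oas1g, so how its reads were shared between copies is uncertain.

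Oasl1 and Oasl2 encode OAS-like proteins and adjoin each other at chr5:114923240-114937915 and chr5:114896936-114912234. Oasl1 was at 9.51, 49.99, 38.9 and 28.8 in WT and 38.4, 79.2, 100.1 and 23.1 in K187R, a log2 fold change of 0.90 with an SE of 0.58. The WT value of replicate 1 was the lowest by far, and without it the log2 fold change was 0.42. Oasl2 differed less, at 95.2 ± 8.16 (WT) and 116 ± 41.6 (K187R, SD, n = 4), a log2 fold change of 0.21 (95% interval -0.39 to 0.80), and it was -0.14 without the samples of high Xist.

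Of the IFIT proteins, IFIT1 binds viral RNA that lacks the host's cap methylation and blocks its translation. Ifit1 (chr19:34640871-34650009) was at 138, 162, 123 and 76.7 in WT and 163, 256, 259 and 96.0 in K187R. Both samples numbered 4 were the lowest of their group, and K187R replicates 2 and 3 were highest. The log2 fold change was 0.57 (SE 0.35, limma adjusted p = 0.921, exact two-sided permutation p = 0.2). Its neighbours on chromosome 19 differed less, Ifit2 by 0.15 (95% interval -0.31 to 0.61) and Ifit3 by 0.075 (95% interval -0.46 to 0.61). Ifit2 was the abundant one of the 3, at 546 normalized counts per kb of exon in WT against 46.9 for Ifit1 and 31.1 for Ifit3. Ifit3 shares 41.1% of its 75-base stretches with Ifit3b and Ifit1 5.19% with Ifit1bl2.

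Isg20, an exonuclease that degrades RNA, was at 119, 126, 118 and 125 in WT and 162, 146, 178 and 125 in K187R. All WT samples lay within a narrow range, and 3 of the K187R samples were above it. Its log2 fold change was 0.31 (SE 0.15, limma p = 0.0692, adjusted p = 0.921, exact two-sided permutation p = 0.0571). Zbp1, a sensor of Z-form nucleic acid that can start cell death, was at 2617, 3156, 2755 and 2273 in WT and 2689, 4511, 4503 and 2413 in K187R, with a log2 fold change of 0.34 (SE 0.21) that was 0.0039 without the samples of high Xist. Eif2ak2, which encodes the kinase PKR that halts translation on double-stranded RNA, was at 1558 ± 191 and 1549 ± 123 (SD, n = 4). Adar, which edits adenosine in double-stranded RNA, was at 8921 ± 506 and 9167 ± 549 (SD, n = 4). The 95% intervals of their log2 fold changes were -0.24 to 0.24 and -0.12 to 0.20. Of the exonic bases of Adar, 16.8% overlap Chrnb2 on the other strand, and whether the counting used strand is not given in the sources used here.

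The role of membrane and particle effectors held 6 members, among them Rsad2 and Cmpk2, whose products act on nucleotides. All 6 were higher in K187R, against 48.4% of all genes, with a median log2 fold change of 0.43. With the set as a factor 5 were higher, with a median of 0.086, and without the samples of high Xist 4 were higher. Mx1 (ENSMUSG00000000386, chr16:97447035-97462907, minus strand) had the largest fold change of the list. It belongs to a family of dynamin-like GTPases known to trap viral nucleoproteins, and whether these cells make a working protein was not measured. Mx1 was at 15.4, 59.6, 10.1 and 19.2 in WT and 42.9, 117, 90.6 and 28.5 in K187R. WT replicate 2 lay above K187R replicates 1 and 4, and the 3 samples of set 2 were the 3 highest. The means were 26.1 ± 22.6 and 69.8 ± 41.3 (SD, n = 4), a log2 fold change of 1.49 (SE 0.59, 95% interval 0.17 to 2.81, limma adjusted p = 0.921, exact two-sided permutation p = 0.0857). It was higher in K187R in each set, by 1.70, 0.78 and 0.55 on the log2 scale, and by 1.22 without the samples of high Xist. Mx2, its neighbour, was the lowest member tested, at 15.4, 17.3, 16.9 and 17.4 in WT and 11.3, 29.3, 25.3 and 15.1 in K187R. Its log2 fold change was 0.17 (95% interval -0.56 to 0.89), and it was -0.32 without the samples of high Xist.

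Ifitm3, which blocks the fusion of viruses with endosomes, was at 122, 395, 120.1 and 222 in WT and 128, 360.1, 442 and 252 in K187R. As with Oas1a, the 3 samples of set 2 were the 3 highest, and the log2 difference of 0.50 (SE 0.46) over all samples was 0.082 with the set as a factor. Rsad2, the gene of viperin, which makes a chain-terminating nucleotide, was at 26.1, 49.99, 21.1 and 19.2 in WT and 22.6, 59.7, 46.3 and 24.0 in K187R. Cmpk2 supplies the nucleotide that viperin uses and lies next to Rsad2 at chr12:26469204-26479837. It was at 36.8, 79.8, 40.6 and 54.0 in WT and 67.8, 84.6, 88.5 and 59.6 in K187R. In both neighbours the samples of set 2 were the 3 highest, and their log2 fold changes were 0.36 (SE 0.41) and 0.55 (SE 0.27). Bst2, or tetherin, which holds budding virus at the cell surface, was 1194 ± 98.7 (WT) and 1235 ± 139 (K187R, SD, n = 4), a log2 fold change of 0.047 (95% interval -0.19 to 0.28).

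All 4 sensors of viral RNA in the cytosol were higher in K187R, with a median log2 fold change of 0.38 and of 0.30 with the set as a factor. Ddx58 (ENSMUSG00000040296, chr4:40203773-40239828, minus strand) encodes RIG-I, which recognizes RNA with a triphosphate end. It was at 2107, 2169, 2279 and 1916 in WT and 2872, 2779, 2619 and 2082 in K187R. K187R replicates 1, 2 and 3 lay above every WT sample, and K187R replicate 4 lay among them. Its log2 fold change was 0.28 (SE 0.11, 95% interval 0.031 to 0.53, limma adjusted p = 0.921, exact two-sided permutation p = 0.114), and within the sets it was 0.39, 0.31 and 0.12. With the set as a factor it was 0.29, and both samples numbered 4 were the lowest of all 8.

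Ifih1 encodes MDA5, which recognizes long double-stranded RNA. It was at 601, 906, 536 and 525 in WT and 779, 1084, 979.6 and 627 in K187R, a log2 fold change of 0.44 (SE 0.22, limma adjusted p = 0.921, exact two-sided permutation p = 0.114). Dhx58 encodes LGP2, a relative of both that tunes their signals. It was at 352, 353, 372 and 385 in WT and 413, 531, 537 and 363 in K187R, and only K187R replicate 4 lay among the WT values. Ddx60, a helicase of the same wider family, was at 486, 586, 358 and 325 in WT and 723, 781, 558 and 397 in K187R. Here K187R replicates 1 and 2 were highest, and WT replicate 2 lay above K187R replicates 3 and 4. The log2 fold changes of Dhx58 and Ddx60 were 0.32 (SE 0.15) and 0.48 (SE 0.25).

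**Figure D4:**
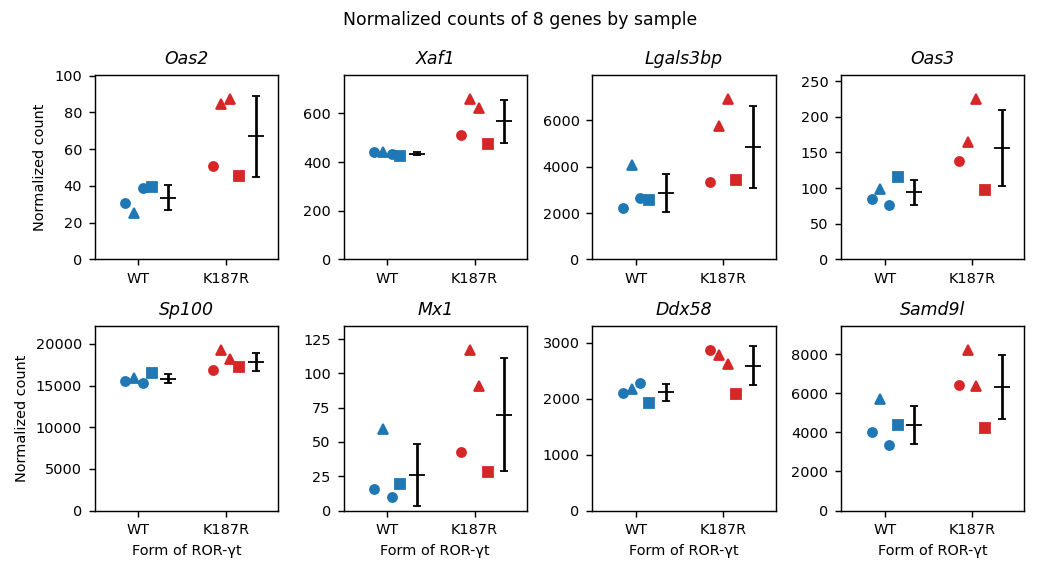
Normalized counts in each sample of the 8 members with an unadjusted limma p under 0.05, with sample sets 1, 2 and 3 as circles, triangles and squares and the mean and SD of 4 samples per group as bars; every vertical axis starts at 0. The groups do not overlap for Oas2, Xaf1 and Sp100, and K187R replicate 4 lies within the range of the WT values in the other 5 panels.

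The ISG15 system attaches the ubiquitin-like protein ISG15 to other proteins. Its 4 members on the list had a median log2 fold change of 0.18, all above 0 except Herc6 after quantile normalization (-0.0045). Isg15 itself (ENSMUSG00000035692, chr4:156199424-156200818, minus strand) was at 70.1, 65.4, 68.5 and 38.3 in WT and 66.7, 71.6, 117 and 48.0 in K187R. WT replicate 4 was low and K187R replicate 3 high, with the other 6 samples between 48.0 and 71.6. The log2 fold change was 0.28 (SE 0.31, limma adjusted p = 0.924, exact two-sided permutation p = 0.4), and it was -0.0088 without the samples of high Xist and 0.054 without K187R replicate 3. Usp18, which removes ISG15 and holds down signalling at IFNAR2, was at 212, 254, 177 and 172 in WT and 209, 320.0, 404 and 211 in K187R. K187R replicates 2 and 3 were the highest, and replicates 1 and 4 lay within the WT range, giving a log2 fold change of 0.45 (SE 0.24). Herc6, the main ISG15 ligase of the mouse, was at 1217 ± 125 and 1219.8 ± 113 (SD, n = 4), and Trim25, a ubiquitin ligase that acts on RIG-I, at 5707 ± 346 and 5997 ± 521 (SD, n = 4). Their log2 fold changes of 0.0045 and 0.069 had 95% intervals of -0.23 to 0.24 and -0.12 to 0.25.

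The 9 signalling and nuclear regulators had the smallest median log2 fold change of the 6 roles, 0.090, with 7 of the 9 higher in K187R, or 8 after quantile normalization. Stat2 encodes the subunit of ISGF3 that is particular to type I and type III interferon. It was at 4645, 4376, 4974 and 4622 in WT and 4446, 5130.2, 5463 and 4237 in K187R, and its log2 fold change of 0.044 had a 95% interval of -0.16 to 0.25. Parp9 and Dtx3l encode partners that modify histones and interferon signalling, and lie head to head at chr16:35938470-35972605 and chr16:35926511-35939151. Parp9 was at 6153, 6062, 5769 and 4034 in WT and 5581, 6913, 6400.2 and 4508 in K187R. Dtx3l was at 13116, 11835, 12798 and 8185 in WT and 11888, 13461, 12600.2 and 9200.2 in K187R. In both genes the 2 samples numbered 4 were the lowest of the 8, and the other 6 samples did not separate by group. The 2 genes overlap on opposite strands over 9.40% and 8% of their exonic bases. Parp14, a further ADP-ribosyltransferase gene of the same stretch of chromosome 16, was also lowest in both samples numbered 4, at 5709 and 5898, and its log2 fold change was 0.13 (95% interval -0.24 to 0.50).

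Sp100 and Xaf1 stood apart from these. Sp100 (ENSMUSG00000026222, chr1:85649988-85709998, plus strand), a scaffold of nuclear bodies that restrict viral DNA, was at 15496, 15934, 15342 and 16533 in WT and 16811, 19280.1, 18131 and 17214 in K187R. Every K187R sample lay above every WT sample, yet the means of 15826 ± 534 and 17859 ± 1097 (SD, n = 4) were 1.13-fold apart. The log2 fold change was 0.17 (SE 0.067, limma p = 0.0279, adjusted p = 0.921, exact two-sided permutation p = 0.0286), and it was 0.12, 0.23 and 0.058 within the sets. Xaf1 (ENSMUSG00000040483, chr11:72301629-72313733, plus strand), which opposes the apoptosis inhibitor XIAP, was at 439.7, 439, 434 and 425 in WT and 512, 661, 624 and 474 in K187R. The 4 WT values were close together, with an SD of 6.74 around 435, and all K187R values were above them. Its log2 fold change was 0.37 (SE 0.13, 95% interval 0.089 to 0.65, limma p = 0.0154, adjusted p = 0.921, exact two-sided permutation p = 0.0286), higher in each set by 0.23, 0.55 and 0.16, and 0.19 without the samples of high Xist.

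Trim30a, which restrains NF-κB signalling, was at 5601, 6639, 4974 and 4892 in WT and 6304, 7360.2, 6252 and 5607 in K187R, a log2 fold change of 0.21 (SE 0.12, limma adjusted p = 0.921, exact two-sided permutation p = 0.171). Ifi35 and Trafd1, an interferon-induced partner of Nmi and a brake on innate signalling, had means slightly lower in K187R. Ifi35 was at 2448 ± 243 (WT) and 2427 ± 133 (K187R, SD, n = 4), and Trafd1 at 3493 ± 307 and 3332 ± 207 (SD, n = 4). Their log2 fold changes of -0.0080 and -0.066 had 95% intervals of -0.21 to 0.19 and -0.25 to 0.12, which reach less far above 0 than the estimate of Ddx58. Of the exonic bases of Ifi35, 16.8% overlap Gm11626 on the other strand.

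The last role gathers 5 members of other or less settled function, of which the 4 tested were all higher in K187R, with a median log2 fold change of 0.48. Lgals3bp (ENSMUSG00000033880, chr11:118392751-118402092, minus strand), a secreted glycoprotein that binds galectins, was at 2213, 4072, 2667 and 2581 in WT and 3322, 5753, 6942 and 3409 in K187R. WT replicate 2 lay above K187R replicates 1 and 4, and the 3 samples of set 2 were the 3 highest. The means of 2883 ± 816 and 4856 ± 1789 (SD, n = 4) gave a log2 fold change of 0.72 (SE 0.27, 95% interval 0.11 to 1.32, limma adjusted p = 0.921, exact two-sided permutation p = 0.0857). In each set K187R was above WT, by 0.45, 0.63 and 0.40 on the log2 scale.

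Samd9l (ENSMUSG00000047735, chr6:3372257-3399572, minus strand), which restricts poxviruses and slows cell growth, was at 4022, 5726, 3371 and 4391 in WT and 6441, 8218, 6391 and 4244 in K187R. K187R replicates 1, 2 and 3 were above every WT sample, and K187R replicate 4 was below WT replicates 2 and 4. Its log2 fold change was 0.52 (SE 0.21, limma adjusted p = 0.921, exact two-sided permutation p = 0.0857). Rtp4, which escorts receptors to the cell surface, was at 118, 120.2, 106 and 46.2 in WT and 122, 189, 181 and 56.9 in K187R. Both samples numbered 4 were lowest by a wide margin, K187R replicates 2 and 3 were highest, and the log2 fold change of 0.44 had an SE of 0.43. It was 0.12 without WT replicate 4 and 0.81 without K187R replicate 4. Ifi27 was at 1612 ± 154 and 1832 ± 253 (SD, n = 4), a log2 fold change of 0.18 (95% interval -0.076 to 0.43). Ifi44, which was not tested, was at 4.75, 12.5, 5.92 and 3.49 in WT and 5.65, 17.4, 16.9 and 4.45 in K187R, so that its samples of set 2 were again the 3 highest.

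**Figure D5:**
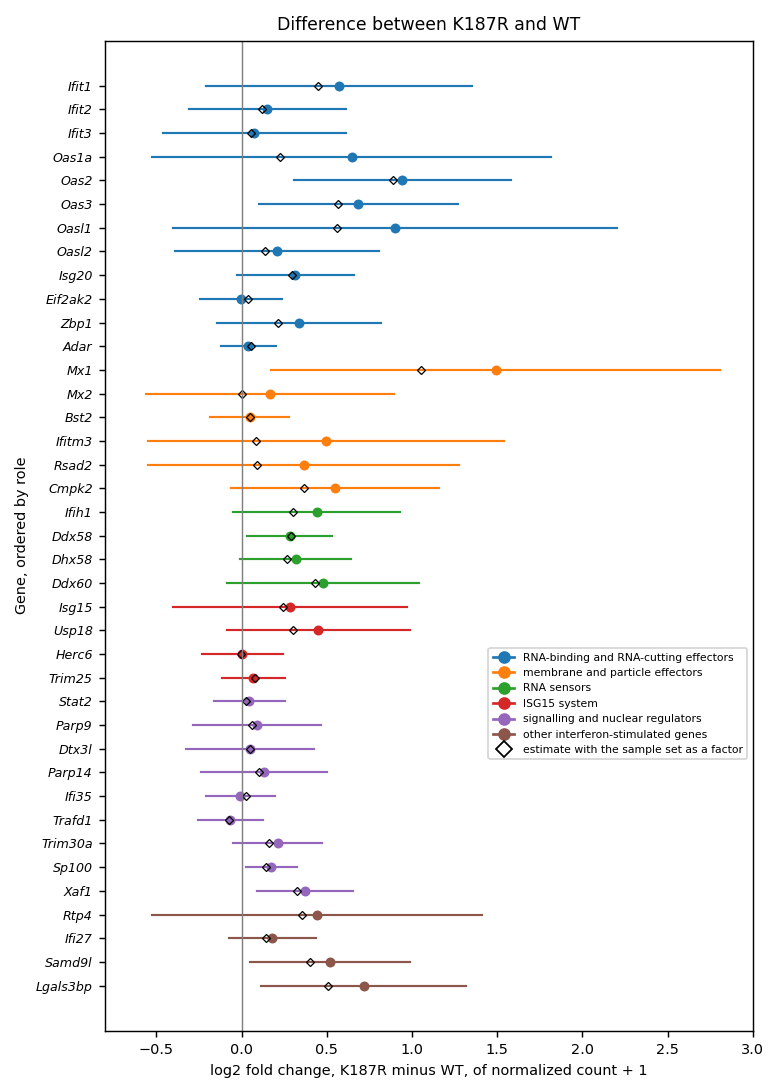
Log2 fold change of each of the 39 members, K187R minus WT, as filled points with 95% limma intervals coloured by role, and the estimate with the sample set as a factor as open diamonds. The intervals of 8 members exclude 0 before adjustment, and for most of the larger differences the diamond lies closer to 0 than the point.

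The members differed widely in level. Per kb of exon, the WT mean was highest for Sp100 (2095 normalized counts per kb), Dtx3l (2006), Ifi35 (1417), Trim30a (1344) and Bst2 (1322). It was lowest for Ifi44 (1.09), Mx2 (4.64), Rsad2 (6.72), Mx1 (6.89) and Oas2 (7.53). Mx1, Mx2, Rsad2 and Oas2 at the bottom of this order belong to families of antiviral effectors, and 4 of the 5 at the top encode nuclear or signalling proteins. The level also went with the size of the difference between groups. The 14 members with a mean under 200 normalized counts had a median log2 fold change of 0.49, and the 25 with a higher mean had 0.17, while over all genes tested the medians were 0.066 and -0.020. Mx1, Oas2, Oasl1, Lgals3bp, Oas3 and Oas1a were the 6 members at least 1.5-fold higher in K187R, and Lgals3bp was the only one of these with a mean above 200. Low counts are also less precise.

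The machinery upstream of the list was also measured. None of 20 type I and type III interferon genes looked for, Ifnb1 among them, was listed in the table, in which every gene has at least 10 reads over the 8 samples. Ifng was listed, at 665 ± 124 (WT) and 698 ± 174 (K187R, SD, n = 4), a log2 fold change of 0.050 (95% interval -0.41 to 0.51). Both chains of the type I receptor were close between groups, Ifnar1 with a log2 fold change of -0.010 (95% interval -0.19 to 0.17) and Ifnar2 with -0.0080 (95% interval -0.17 to 0.15). Jak1 (0.075, SE 0.079), Tyk2 (0.14, SE 0.11) and Irf9 (0.12, SE 0.082) had log2 fold changes that did not pass the test. Irf7, which amplifies interferon production and is itself a target of ISGF3, was at 394, 455, 408 and 352 in WT and 385, 632, 727 and 333 in K187R, a log2 fold change of 0.30 (SE 0.24). The same K187R replicates as for most members, 2 and 3, were its highest samples.

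Of 33 pathway genes tested, 24 were higher in K187R (26 after quantile normalization), against 48.4% of all genes, with a median log2 fold change of 0.087, and limma called 0 of them. The lowest fold change was that of Ifngr1, the ligand-binding chain of the interferon-γ receptor. It was at 21740.2, 20440.2, 21301 and 16392 in WT and 13343, 12721, 12902 and 13161 in K187R. Every K187R sample lay below every WT sample, with a log2 fold change of -0.61 (SE 0.093, limma adjusted p = 0.344). DESeq2 called it, with an adjusted p of 3.07e-05, while limma and edgeR did not. Its partner Ifngr2 had a log2 fold change of -0.081 (SE 0.080). The highest pathway fold change was that of Ifnlr1, the receptor chain for type III interferon (0.68, SE 0.40, limma adjusted p = 0.921). The enzymes that load ISG15, Uba7 and Ube2l6, had log2 fold changes of 0.29 (SE 0.14) and 0.48 (SE 0.34), and the inhibitor Socs1 had 0.054 (SE 0.21). Ptpn6, the phosphatase SHP-1, had groups that did not overlap, with a log2 fold change of 0.31 (SE 0.092, limma adjusted p = 0.921), and was singled out after its values were seen. It was the 1 pathway gene of 33 without overlap and with K187R higher, against 1.47% of all genes. Ifngr1 was the 1 without overlap and with K187R lower, against 0.989%.

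A further 31 interferon-stimulated genes that are not on the list were read in the same way. All 31 were higher in K187R, against 48.4% of all genes, with a median log2 fold change of 0.29, and all 31 were higher after quantile normalization too. Of them, 7 had an unadjusted limma p under 0.05, against 2.75% of all genes higher and 4.39% in either direction, and limma, edgeR and DESeq2 called 0. Without the samples of high Xist, 25 of the 31 were higher and the median was 0.21. The highest fold change was that of Ifit1bl1 (0.92, SE 0.47), a relative of Ifit1, and the lowest that of Ifi27l2a (0.018, SE 0.13), a relative of Ifi27. Since these genes were read in the same 8 samples, and the sets are the same, they are a wider description of these samples and not a repeat of the comparison.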

How the data were processed

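RNA seq libraries of 8 samples, 4 WT and 4 K187R by the labels, were read at 75 bases in pairs by the authors. Per the paper and the labels Cutadapt trimming was followed by HISAT2 alignment to GRCm38, counting with featureCounts on GENCODE M15 and DESeq2; versions and strand setting are not given in the sources used here. The deposited signal per gene is a read count divided by 1 size factor per sample. Every value (100%, tolerance 0.01 of a read) was a whole number of reads, and the size factors equalled those of DESeq2 to a relative difference of 4e-06. No column was left unused (0).

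The main test was limma 3.58.1 (lmFit, eBayes with trend, R 4.3.3) on log2(value + 1) for the 16982 genes whose mean was 10 or more, all 8 samples, no covariate, Benjamini-Hochberg over all genes at 0.05. Fold changes are on this scale and understate those of low genes. The edgeR 4.0.16 quasi-likelihood test and DESeq2 1.42.0 were run on the recovered reads as alternatives. The fits were tested on simulated counts. Single genes also had an exact two-sided permutation test (smallest p 0.0286), and medians and scores had none.

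Members and lists were chosen with earlier results of these data known. All 40 members are named; of the other lists, the receptor pathway's factors, genes called and the highest and lowest fold change. Sample sets are average-linkage clusters of samples on correlation, with 3 sets asked for after the data were seen. Coordinates and exon lengths are from GENCODE M21 on GRCm38, and promoters from RefSeq on GRCm38.p6, where 33 of 38 continued into a transcript of the gene in the expected direction. Intervals are 95% limma intervals. Depth limits low genes: 3 reads are 2.54 to 3.56 normalized counts. Alternatives were pseudocounts of 0.5 and 5, no minimum, a minimum of 50, quantile normalization, a block for the replicate number, leaving out each sample and, chosen after seeing the data, the sample set as a factor, the 3 samples of high Xist left out and both samples numbered 4 left out. Analyses used Python 3.11.15, numpy 2.4.6, pandas 2.3.3, scipy 1.17.1 and matplotlib 3.10.9. Some results are not reported here.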

Additional observations from a re-analysis of the deposited data

Results flagged for a closer look

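A sample stood far from the other 3 of its group, by more than Dixon's 95% critical value for 4 samples, in 5 of the 80 groups examined, where chance alone gives about 1 in 20, or 4. Oas1a was at 123.1 in WT replicate 2 against 34.67 to 35.65 in the other WT samples. Bst2 was at 1444 in K187R replicate 3 against 1162 to 1171. The other 3 were low values of WT replicate 4: Isg15 at 38.34 against 65.37 to 70.11, Parp9 at 4034 against 5769 to 6153, and Rtp4 at 46.18 against 105.7 to 120.2.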

How the results depend on the processing

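Under 19 alternatives, 16 planned and 3 chosen after seeing the data, 0 members were called, and the median log2 fold change stayed above 0. So did the score difference, which was not computed in edgeR and DESeq2. The number of genes called among all genes was 0 in the main limma fit, 27 in DESeq2, 1 with the sample set as a factor, 4 without both samples numbered 4, and 0 to 4 with each sample left out; the causes were not tested. The score difference ranged from 0.24 to 0.47 and the members' median from 0.21 to 0.42 with each sample left out.

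Of 39 members, 25 kept their direction throughout. Quantile normalization reversed Ifi35 (0.013), Eif2ak2 (0.0092), Herc6 (-0.0045) and Ifit3 (-0.057). The set as a factor reversed Ifi35 (0.025), Mx2 (-0.00084), Eif2ak2 (0.034) and Herc6 (-0.0031). Leaving out the 3 samples of high Xist reversed Parp9 (-0.061), Mx2 (-0.32), Adar (-0.032), Oasl2 (-0.14), Parp14 (-0.038), Isg15 (-0.0088), Stat2 (-0.13), Bst2 (-0.049), Dtx3l (-0.088) and Ifit3 (-0.15). With each sample left out, the log2 fold change ranged from -0.080 to 0.057 for Eif2ak2, -0.079 to 0.028 for Ifi35, -0.052 to 0.052 for Herc6, -0.053 to 0.21 for Parp9, -0.0049 to 0.29 for Ifit2, -0.031 to 0.084 for Bst2, -0.11 to 0.16 for Dtx3l, -0.081 to 0.19 for Ifit3, -0.035 to 0.40 for Mx2 and -0.019 to 0.10 for Stat2. The causes were not tested.

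Replicate numbers share no stated source, and same-numbered samples deviated together with r = 0.59, 0.66, -0.092 and 0.63 for numbers 1 to 4; 6 of 8 samples correlated best with their own number. With the replicate number as a block, limma called 0 members and 0 of all genes (median log2 fold change 0.28, score difference 0.34), and 18 members against 12% of all genes had an unadjusted p under 0.05, compared with 8 members without the block. Counts near 10 to 50, as for Mx2 and Rsad2, limit the precision of single members.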
